A study of Triticum aestivum with 36 samples.

Results

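The 60 probe sets described here belong to annotated wheat genes whose signal dropped between 7 and 14 days after anthesis (DAA) and then stayed near the level reached. They were chosen from the C306 and Sonalika arrays alone: a probe set had to have a gene symbol in the array's annotation, its mean over both varieties had to be at least 1 lower in log2 at 14 DAA than at 7 DAA, and its mean at 28 DAA had to lie within 1 of that at 14 DAA. Histone, tubulin, rbcL, Em and Rab genes and the probe sets on the study's own list of large differences were left out beforehand. Of 61290 probe sets on the array 1273 had a gene symbol and 1167 of these were eligible, 107 had dropped by 1 or more, 70 of the 107 had also held, and the 60 with the largest drops were taken. They stand for 49 genes. RNA came from caryopses of 4 Indian bread wheat varieties, C306 and Lok1 (good for making chapatti) and Sonalika and WH291 (poor), each harvested at 7, 14 and 28 DAA from plants grown in 3 biological replications, which gives 36 arrays and 3 for each variety and stage. The labels name no treatment, and RNA was extracted from whole seeds, so fewer cells of a type and less RNA per cell cannot be told apart.

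The weeks after anthesis take the wheat caryopsis through a change of work. In the first of them nuclei and cells of the endosperm multiply and the pericarp around it is still green, while later the endosperm fills with starch and storage protein and the grain dries. The annotation gives 11 of the 60 probe sets, standing for 9 genes, a name. BMY1 is also listed as amy1, and under its first name it would be a beta-amylase, an enzyme that releases maltose from starch. SAHH, S-adenosylhomocysteine hydrolase, recycles the by-product of methylation reactions, and lgul, lactoylglutathione lyase, takes part in the detoxification of methylglyoxal. APRT and AdSS both make adenine nucleotides, APRT (adenine phosphoribosyltransferase) by salvage of adenine and AdSS (adenylosuccinate synthetase) in the route to AMP. PsbO is a protein of the oxygen-evolving complex of photosystem II, and ALMT1 is a malate channel known from the aluminium tolerance of wheat roots. Prx1 and Glc1 are given by name only. The other 49 probe sets carry a LOC number, the placeholder symbol of a gene without a name, and are given by it.

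All values are log2 signals centred on the median of each probe set over the 36 arrays. A difference of 1 is a factor of 2, and a level says nothing beside that of another probe set. Some arrays stood apart before any result was read. The arrays labelled Lok1 7 DAA and WH291 14 DAA carry doubt about their labels from a part of the marker genes. A list of 18 histone probe sets, high in dividing tissue, had a median of 0.82 in the arrays labelled Lok1 7 DAA against 2.40 to 3.17 in the other varieties at 7 DAA. Single arrays of Lok1 7 DAA ran from 0.35 to 2.62, so that 1 of the 3 read like the other varieties. In the arrays labelled WH291 14 DAA the histone median was 1.36, against -0.35 to 0.03 in the others at 14 DAA. Tubulins went the same way, with 0.13 in Lok1 7 DAA against 0.71 to 1.17, and 0.55 in WH291 14 DAA against -0.04 to 0.09. Other marker lists did not set these arrays apart. The median of Em and Rab genes was -7.81 in the arrays labelled Lok1 7 DAA, against -8.02 to -7.52 in the other varieties. In those labelled WH291 14 DAA it was -3.775, near C306 at -3.53 but below Lok1 at 1.01 and Sonalika at 1.21. A list of mostly storage protein genes had 0.72 there, against 0.65 to 1.09 in the others at 14 DAA. Among the arrays of one group, C306 14 DAA replicate 1 held the highest value of its 3 arrays for 50 of the 60 members, and Lok1 7 DAA replicate 2 the lowest of its 3 for 48. Every label was kept, and results that rest on the 6 doubted arrays are given with and without them where a fit without them was possible.

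The fall was visible on whole arrays. The median over the 60 members was 1.22, -0.20 and -0.25 at 7, 14 and 28 DAA in C306, 0.66, -0.30 and -0.23 in Lok1, 1.46, -0.17 and -0.21 in Sonalika, and 1.34, -0.14 and -0.13 in WH291. C306 and Sonalika chose the members, so their medians describe the choice and show nothing more. At 7 DAA the 3 arrays labelled Lok1 had medians of 0.89, 0.01 and 1.01, and replicate 2 was thus near the level of 14 DAA. C306 14 DAA replicate 1 had a median of 0.33, against -0.40 and -0.36 on the other C306 arrays of that stage, and lay between the arrays of 7 and 14 DAA.

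**Figure D1:**
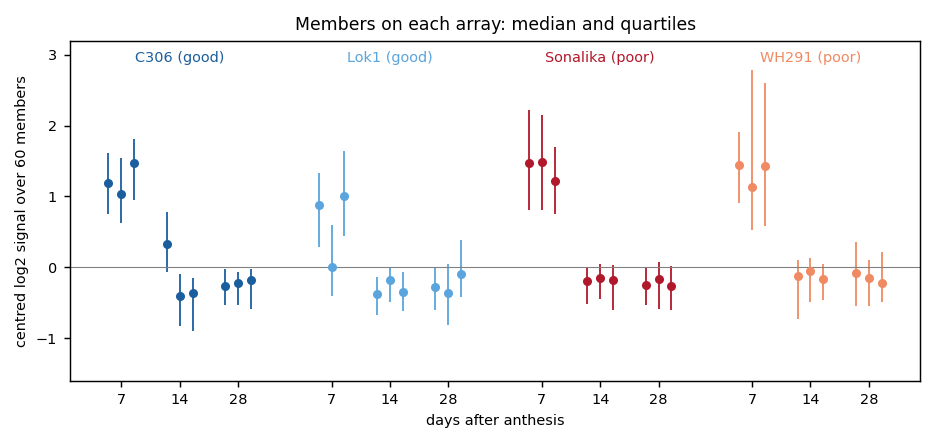
Median (point) and quartiles (bar) of the 60 members on each of the 36 arrays, in centred log2 signal, by variety and days after anthesis. Every variety is high at 7 DAA and near 0 later, with Lok1 7 DAA replicate 2 at 0.01 and C306 14 DAA replicate 1 at 0.33 apart from their groups.

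In C306 all 60 members were lower at 14 than at 7 DAA, 50 of them by 1 or more, and in Sonalika all 60 were lower and 54 by 1 or more. From 14 to 28 DAA, 53 members stayed within 1 in C306 and 51 in Sonalika. Without C306 14 DAA replicate 1, the number that dropped by 1 or more in C306 was 56, and 53 stayed within 1. Only 44 members dropped by 1 or more in both varieties taken singly, so that for the other 16 the mean hid a smaller drop in one of them. Over all 4 varieties, 50 members were lower at 14 than at 7 DAA in each, 17 dropped by 1 or more in each, and 8 dropped by 1 or more and then held within 1 in each. These counts are a description, since C306 and Sonalika entered the choice.

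**Figure D2:**
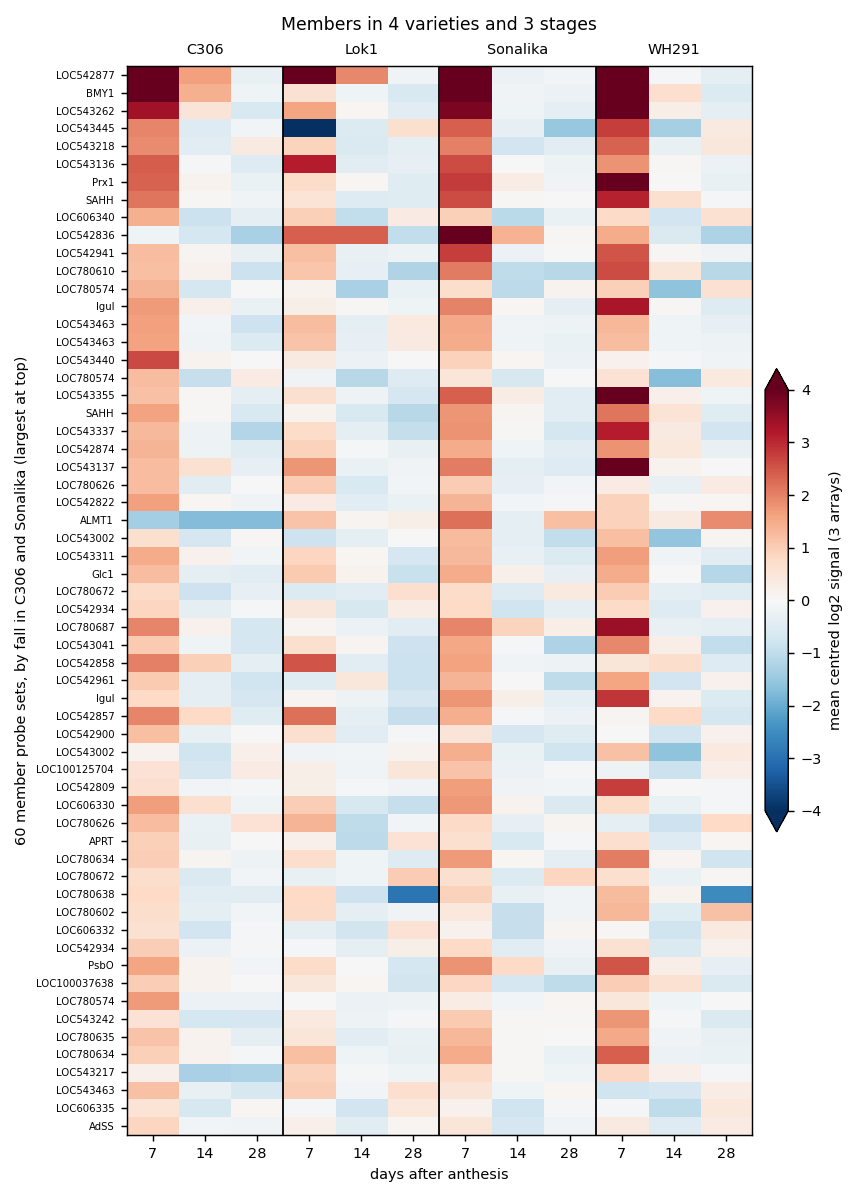
Mean centred log2 signal of 3 arrays for the 60 members (rows, ordered by the drop that chose them) at 7, 14 and 28 DAA in C306, Lok1, Sonalika and WH291 (columns); colours end at -4 and 4. LOC543445 in Lok1, LOC542836 and ALMT1 in C306 and LOC780638 at 28 DAA in Lok1 and WH291 stand out from the common pattern of red at 7 DAA and pale colours later.

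The largest drop of all belonged to LOC542877, whose values at 7 DAA were 7.89, 8.50 and 8.36 in C306 and 7.70, 7.62 and 7.74 in Sonalika. At 28 DAA no array of either variety was above -0.01. The steps lay apart in C306 at 14 DAA, with 4.47, 0.63 and -0.13 in the 3 replicates, so that 1 array still carried a high level. Sonalika was at or below -0.04 on all its arrays of 14 DAA.

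At the other end, the drop of the last members taken and of the first ones left out was nearly the same. 1 of the 3 member probe sets of LOC543463 (of 4 annotated), LOC606335 and AdSS closed the list, each with a change of -1.07. A second probe set of LOC606340, LOC542844 and LOC542901 came next, with -1.05, -1.04 and -1.04. Leaving out any 1 of the 18 arrays of C306 and Sonalika and choosing again kept 51 to 58 of the 60, the fewest without C306 14 DAA replicate 1.

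Lok1 and WH291 played no part in the choice and could be tested. In WH291, 48 of the 60 members fell from 7 to 14 DAA and none rose (limma, Benjamini-Hochberg adjusted p under 0.05 over 60130 probe sets), where 16.3% of all tested probe sets fell and 12.3% rose, 28.6% together. The median change was -1.65, against -0.01 over all tested probe sets, and single members ran from -5.50 to 0.69. In Lok1, 33 fell and 1 rose, where 11.0% of all tested probe sets fell and 8.98% rose, 19.9% together, with a median of -0.91 against -0.05 and a range of -3.84 to 5.01. All 60 members had passed the filter on low values. The members that fell were not one set: 27 fell in both varieties, LOC543445 changed in both but in opposite directions, 20 changed in WH291 alone, 6 in Lok1 alone and 6 in neither. A change past the test in one variety alone does not show that the varieties differ.

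Both of these comparisons rest on doubted arrays, since the early arrays of Lok1 and the 14 DAA arrays of WH291 are the ones in question, and neither could be fitted without them. The comparison of WH291 at 28 and 7 DAA uses none of them. There 40 members were lower and 2 higher at 28 than at 7 DAA, where 19.0% and 18.0% of all tested probe sets were, with a median of -1.62 against -0.0044 over all tested. Of the other tested probe sets with a gene symbol, 27.1% were lower. Fitted without the 6 arrays, which then no longer add to the estimate of the spread, 42 were lower and 4 higher, where 38.2% of all tested probe sets passed, among them all 42 that had passed before. The 2 higher ones were 1 of the 2 probe sets of LOC780626, by 1.15, and the last of LOC543463, by 1.10. LOC606340, 2 probe sets of LOC780574, LOC543440 and the other probe set of LOC780626 were among the 18 that did not pass, and none of them had changed beyond -0.32.

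**Figure D3:**
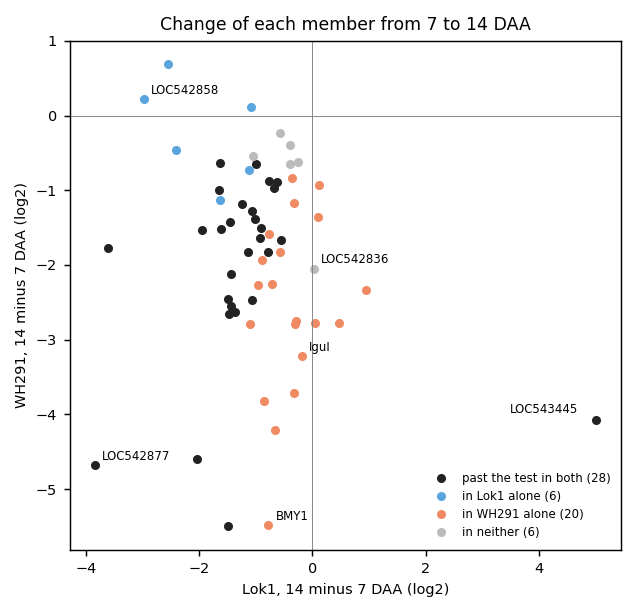
Change of each of the 60 members from 7 to 14 DAA in log2, in Lok1 (x axis) and WH291 (y axis); colours mark members past the test in both varieties (28), in Lok1 alone (6), in WH291 alone (20) and in neither (6). LOC543445 lies alone at the right, with 5.01 in Lok1 and -4.08 in WH291.

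Among the genes with a name, the one with the largest drop was BMY1. Its values at 7 DAA were 3.98, 3.46 and 5.92 in C306 and 1.27, 0.02 and 0.53 in the arrays labelled Lok1, and 4.65, 4.50 and 3.08 in Sonalika and 4.04, 7.04 and 7.36 in WH291. Only the arrays labelled Lok1 were low at this stage, and their highest value lay below the lowest of the other 3 varieties. At 28 DAA every array of the 4 varieties was between -0.96 and 0.04. BMY1 fell by 5.48 in WH291 from 7 to 14 DAA (SE 0.82, adjusted p = 6.27e-06, limma), whereas the change in Lok1 was -0.78 (adjusted p = 0.582). C306 14 DAA replicate 1 read 4.38, against 0.17 and -0.33 on the other arrays of that group.

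Prx1 and lgul had the same shape. On the 3 arrays labelled WH291 14 DAA Prx1 lay between -0.12 and 0.03, against 5.18 and 5.55 in WH291 7 DAA replicates 2 and 3 and 1.85 in replicate 1. In WH291 Prx1 fell by 4.21 and the first lgul probe set, the one with the larger drop, by 3.22 between these stages (adjusted p = 4.83e-06 and 1.15e-06, limma), while in Lok1 their changes were -0.66 and -0.19 (adjusted p = 0.524 and 0.824). The second lgul probe set fell by 2.74 in WH291 and changed by -0.29 in Lok1, which did not pass. Both lgul probe sets ran together over the 36 arrays (r = 0.94, a description across arrays that share stage and variety).

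SAHH, with 2 member probe sets, fell in WH291 by 2.47 and 1.59 from 7 to 14 DAA. The first of them read at 7 DAA 1.86, 2.00 and 2.59 in C306 and 1.32, -0.04 and 0.34 in the arrays labelled Lok1, against 2.84, 2.68 and 2.29 in Sonalika and 2.94, 3.11 and 3.23 in WH291. The arrays of WH291 were thus all above those of the other varieties and those labelled Lok1 all below. In Lok1 it changed by -1.06 (adjusted p = 0.0485, limma), just past the threshold, and the second by -0.76 (adjusted p = 0.0564).

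PsbO reached 2.79 and 3.70 in WH291 7 DAA replicates 2 and 3 and 1.10 in replicate 1, and it fell by 2.25 there from 7 to 14 DAA (SE 0.54, adjusted p = 0.002, limma). Its change in Lok1 was -0.71 and did not pass. PsbP, which works beside PsbO in the same complex, is the only other gene on the role list of light reaction genes, with 2 probe sets that are not members: the first fell by 2.55 in WH291 from 7 to 14 DAA (adjusted p = 0.0137, limma) and changed by 0.02 in Lok1, and the second changed by -0.04 in WH291 and 0.08 in Lok1. A wider marker list of 5 probe sets, these 3 and 2 of petC, the Rieske protein of the cytochrome b6f complex, had a median at 7 DAA of 0.80 in C306, -0.03 in the arrays labelled Lok1, 1.88 in Sonalika and 2.79 in WH291. Of the 17 lists of gene roles, matched by words in symbols and synonyms, 3 held a member: PsbO stood on this one, and Prx1 on those of redox and defence genes. Of the 11 other redox probe sets 4 fell and 5 rose in WH291 from 7 to 14 DAA, and of the 10 other defence probe sets tested 3 fell and 4 rose. Both lists hold 3 further probe sets of Prx1 itself, which changed by -4.23, -2.33 and 0.19 in WH291 from 7 to 14 DAA, so the counts are partly of the same gene.

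APRT and AdSS, the adenine nucleotide genes, fell from 7 to 14 DAA in Lok1 and WH291 and were higher again at 28 DAA in both. APRT read 0.25, -0.40 and 0.76 at 7 DAA on the arrays labelled Lok1, -1.32, -0.84 and -0.96 at 14 DAA, and 0.33, 0.66 and 0.74 at 28 DAA. The 3 arrays of 14 DAA were below all others of Lok1. APRT rose by 1.62 from 14 to 28 DAA in Lok1 (SE 0.19, adjusted p = 2.06e-07, limma). In WH291 APRT read -0.55, -0.57 and -0.45 on the arrays labelled 14 DAA and 0.27, -0.07 and 0.07 at 28 DAA, without overlap. AdSS fell by 0.63 in Lok1 and by 0.89 in WH291 from 7 to 14 DAA (adjusted p = 0.00188 and 2.08e-05, limma) and then rose by 0.50 in Lok1 (adjusted p = 0.00871). In WH291 the change of AdSS from 7 to 28 DAA was -0.06 (adjusted p = 0.813), so there too it was higher at 28 than at 14 DAA.

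The member probe set of Glc1 was lower still at 28 DAA in Lok1. It fell by 0.91 from 7 to 14 DAA in Lok1 and by 1.5 in WH291 (adjusted p = 0.0387 and 0.00045, limma), and from 14 to 28 DAA by another 1.03 in Lok1 (adjusted p = 0.0138). At 28 DAA the arrays of Lok1 lay between -1.13 and -0.72 and those of WH291 between -1.16 and -1.14, while those of C306 lay between -0.49 and -0.36 and those of Sonalika between -0.55 and -0.12. Another probe set of Glc1, not a member, changed by 0.06 in Lok1 and 0.17 in WH291 from 7 to 14 DAA and by 0.26 and -0.08 from 14 to 28 DAA, and its correlation with the member over the 36 arrays was -0.48.

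ALMT1 was a member only through Sonalika. In C306 it read -1.37, -1.23 and -1.44 at 7 DAA, -1.80, -1.75 and -1.65 at 14 DAA and -1.65, -1.86 and -1.67 at 28 DAA, lower at every stage than any array of the other varieties. In Sonalika it dropped by 2.58 to 14 DAA and came back by 1.57 to 28 DAA, so that the step of the mean of both varieties from 14 to 28 DAA, which the choice used, was that of neither. Lok1 spread from -0.66 to 3.03 at 7 DAA, and neither its change nor that of WH291 passed the test.

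**Figure D4:**
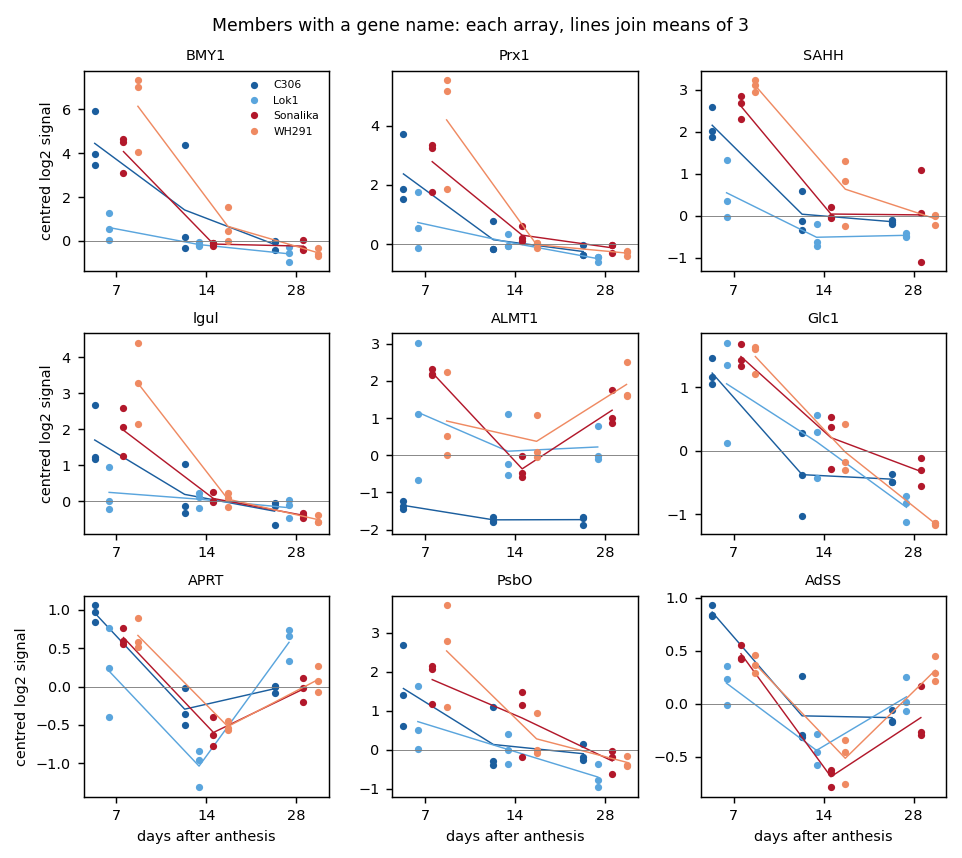
Centred log2 signal of the 9 members with a gene name on every array (points) at 7, 14 and 28 DAA; lines join the means of 3 arrays for C306, Lok1, Sonalika and WH291. SAHH and lgul are shown by their probe set with the larger drop, and the scale differs between panels.

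From 14 to 28 DAA, 47 members stayed within 1 in Lok1 and 38 in WH291, where 85.4% and 84.3% of all tested probe sets did. In Lok1, 14 members rose and 6 fell from 14 to 28 DAA, where 14.1% and 12.9% of all tested probe sets did. Without the 6 doubted arrays, which this comparison does not use but whose spread enters the fit, 16 rose and 8 fell, where 28.5% of all tested probe sets changed. In WH291, 20 rose and 11 fell, where 14.6% and 12.4% of all tested probe sets did, and this comparison rests on the arrays labelled WH291 14 DAA. Other tested probe sets with a gene symbol changed about as often as the members or more often. In Lok1 41.0% of them passed, against 33.3% of members, and in WH291 45.6% against 51.7%.

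Besides APRT, the members that rose in Lok1 from 14 to 28 DAA included LOC606332 by 1.32, LOC606340 by 1.30, LOC606335 by 1.18, both probe sets of LOC780672 by 1.14 and 1.18, and both of LOC542934 by 0.94 and 0.60. LOC606332 read 0.42, 0.54 and 0.77 in Lok1 at 28 DAA and -0.99, -0.51 and -0.72 at 14 DAA, without overlap. The opposite was seen for LOC780638, named here for the size of its late step after its values were seen. At 28 DAA it read -1.52, -3.68 and -3.59 in Lok1 and -2.80, -2.32 and -2.56 in WH291, but -0.48, -0.40 and -0.45 in C306 and 0.42, -1.15 and 0.30 in Sonalika. It fell by 2.11 from 14 to 28 DAA in Lok1 (adjusted p = 0.00212, limma) and fell by 3.82 from 7 to 28 DAA in WH291 (adjusted p = 4.24e-07, limma).

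LOC542836 did not take the same course in every variety. The 3 arrays of Sonalika fell in step, with 4.95, 5.12 and 4.83 at 7 DAA, 1.52, 1.39 and 1.28 at 14 DAA and 0.07, -0.65 and 0.68 at 28 DAA. WH291 fell too, from a lower level of 1.21, 1.40 and 1.81 at 7 DAA. It read -0.90, -0.28 and -0.55 on the arrays labelled 14 DAA and -0.93, -1.44 and -1.34 at 28 DAA. C306 was low from the start, at -0.07, -0.19 and -0.23, and its difference from Sonalika at 7 DAA was -5.13, given as a description since the high arrays of Sonalika brought the gene into the choice. On the arrays labelled Lok1 7 DAA the gene read 0.97, -0.32 and 6.48, so that replicate 3 decides the group's mean, and at 14 DAA Lok1 held 2.12, 2.93 and 2.13. From 14 to 28 DAA it fell in Lok1 by 3.38 (adjusted p = 0.00485, limma).

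The drop of LOC543440 came mainly from C306, where it read 2.56, 2.64 and 2.71 at 7 DAA, against 0.49, 0.48 and 1.83 in Sonalika. At 7 DAA it was between 0.11 and 0.66 on the arrays labelled Lok1 and between 0.00 and 0.39 in WH291, and in neither variety did its change to 14 DAA pass the test (-0.58 and -0.23). LOC542858 and LOC542857 fell in Lok1 by 2.97 and 2.55 (adjusted p = 1.23e-06 and 1.65e-05, limma), while on the arrays labelled WH291 14 DAA they were 0.22 and 0.69 above those of 7 DAA, which did not pass. At 7 DAA LOC542858 was at 2.94, 2.26 and 2.36 in Lok1 and at 1.52, -0.23 and 0.13 in WH291, without overlap.

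Members with a change at or above 0 in Lok1 from 7 to 14 DAA were LOC543445 (5.01), LOC542961 (0.94), LOC543002 (0.47 and 0.05 for its 2 probe sets), LOC780672 (0.12 and 0.10) and LOC542836 (0.02), and only LOC543445 passed the test. LOC543445 read -5.42, -5.71 and -5.51 at 7 DAA on the Lok1 arrays, while WH291 had 2.81, 2.78 and 2.69. C306 held 1.90, 1.59 and 2.40 and Sonalika 2.59, 2.66 and 1.95 at that stage, and at 14 and 28 DAA no array of any variety was below -2.34. Its low level was therefore seen in 1 group of 3 arrays among the 12, a group whose label is in doubt. Between 7 and 14 DAA the fold was 32.2 upward in Lok1 and 16.9 downward in WH291 (adjusted p = 1.47e-09 and 3.67e-08, limma).

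Of the genes with several probe sets among the members, some had all of them fall and others did not; since these probe sets were all chosen for the same drop, this is a description. LOC543463 had 3 members, of which 2 fell by 1.51 and 1.42 in WH291 from 7 to 14 DAA, while the last changed by 0.12 there and by -1.08 in Lok1 (adjusted p = 0.85 and 0.0238, limma). LOC780574 had 3 members too: 2 fell by 2.55 and 2.27 in WH291 from 7 to 14 DAA, but the change of the other was -0.62 and did not pass. Both probe sets of LOC542934, of LOC543002 and of LOC780634 fell in WH291 from 7 to 14 DAA, and so did both of LOC780672 (by 1.36 and 0.93). Both probe sets of LOC780626 fell by 1.63 and 2.40 in Lok1.

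Genes with further probe sets that are not members showed how far the choice depends on the probe set. Of 46 such probe sets, 20 had a correlation under 0.5 over the 36 arrays with the gene's first member and 6 of these were below 0, a description across arrays that share stage and variety. The 3 lowest values for LOC542961 were -0.58, -0.55 and -0.37. Prx1 has 4, of which 1 had dropped by 2.52, more than the member, and was left out because its step from 14 to 28 DAA was -1.01. Of the 10 probe sets of LOC606340 1 is a member, with a drop of 2.16, and 3 others dropped by 1.01 to 1.05. LOC606332 has 7, of which the member and another dropped by 1.22 and 1.21, and the second was left out because it rose by 1.03 afterwards. No member genes were neighbours in the RefSeq annotation of wheat (assembly IWGSC CS RefSeq v2.1), in which all 49 were placed.

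The comparison of good with poor varieties was made at each stage. At 7 DAA, 23 members were lower and 5 higher in good than in poor varieties, where 6.31% and 6.58% of all tested probe sets were, with a median difference of -0.38 against -0.01 over all tested probe sets. Of the other tested probe sets with a gene symbol, 25.2% passed, against 46.7% of the members, and 10.1% were lower. At 14 DAA the number was 0 with limma, where 0.0233% of all tested probe sets passed, with 4 at an unadjusted p under 0.05. With array weights 2 passed the adjusted test, and the share of all tested probe sets in that fit is not given. At 28 DAA the number with limma was 1, ALMT1, lower by 2.31 (adjusted p = 0.0403), where 2.18% of all tested probe sets passed and 0.783% were lower in good varieties. C306 was the lowest, with -1.65, -1.86 and -1.67. Lok1 read -0.11, -0.01 and 0.78, against 0.88, 1.75 and 1.00 in Sonalika and 1.62, 2.50 and 1.58 in WH291. Lok1 too was thus below every array of the poor varieties. ALMT1 was a member only through Sonalika, so this difference is a description. With the replicate block or with variety as a random block no member passed at 28 DAA.

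Without the 6 doubted arrays the good side at 7 DAA is C306 alone, with 3 arrays, against the 6 of Sonalika and WH291, so that every value given without them at this stage compares 1 variety with the poor ones. In that fit 12 members were lower and 4 higher in C306, where 8.57% of all tested probe sets passed, and 12 of these 16 had also passed with all arrays. Taken by pairs of varieties, 31 members were lower and 6 higher in Lok1 than in WH291 at 7 DAA, where 13.7% and 11.1% of all tested probe sets were. Between C306 and Sonalika at 7 DAA, 3 were lower and 2 higher in C306, where 2.38% and 3.74% were. The arrays of C306 and Sonalika entered the choice, and a member high in only 1 of them could be chosen through it. Counts between these varieties at any stage, and those of C306 alone against the poor varieties, are therefore a description. Good against poor varieties with all arrays holds these arrays too. At 14 DAA, 2 members passed between C306 and Sonalika and 3 between Lok1 and WH291, where 5.55% and 5.86% of all tested probe sets did. Without the 6 arrays 7 members passed between C306 and Sonalika, where 7.06% of all tested probe sets did. With array weights the counts at 14 DAA were 17 and 10, and the share of all tested probe sets in that fit is not given. It gave C306 14 DAA replicate 2 a weight of 8.04, against 0.372 and 0.475 for replicates 1 and 3. At 28 DAA the counts were 5 and 3, where 6.84% and 8.07% did. The arrays labelled Lok1 had the lowest mean of the 4 varieties at 7 DAA for 42 members and WH291 the highest for 28.

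The member with the smallest adjusted p was LOC542809, lower in good varieties by 1.76 (SE 0.26, adjusted p = 3.47e-05, limma). Its 6 arrays of good varieties had a lowest value of 0.09, a median of 0.55 and a highest of 0.90, and those of poor varieties had 0.77, 2.12 and 3.49. The groups overlapped only through Sonalika replicate 3 at 0.77 and C306 replicate 3 at 0.90. In C306 alone, without the 6 arrays, the difference from the poor varieties was -1.54 (adjusted p = 0.00453).

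LOC542941 differed in the same direction, with 0.60, 1.20 and 1.93 as lowest, median and highest value in good varieties and 1.02, 2.87 and 3.37 in poor ones. The difference was -1.52 between C306 and Sonalika and -1.30 between Lok1 and WH291, so that both pairs ran the same way, and without the 6 arrays, for C306 alone, it was -1.39 (adjusted p = 0.00325, limma). LOC543355 and LOC543041 were lower in good varieties by 2.29 and 0.89 (adjusted p = 0.000284 and 0.000248, limma), and for C306 alone the differences were -2.02 and -0.69 (adjusted p = 0.0144 and 0.0115). LOC543041 lay between 0.41 and 1.09 in good and between 1.30 and 2.00 in poor varieties, without overlap.

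For the second lgul probe set the difference of good from poor varieties was -1.87 (adjusted p = 0.000346, limma), and -1.53 for C306 alone (adjusted p = 0.0117). For the first it was -1.65 (adjusted p = 0.0026), and -0.93 for C306 alone (adjusted p = 0.186). For LOC543262 the difference was -2.28, and -1.39 for C306 alone (adjusted p = 0.108). For LOC543337 it was -1.47 (SE 0.33), and for C306 alone -1.19 (SE 0.42, adjusted p = 0.0809), a smaller change of the difference than its error. By pairs, LOC543262 had a difference of -0.40 between C306 and Sonalika and of -4.16 between Lok1 and WH291. LOC543445, lower by 4.37 with all arrays, had a difference of -0.62 for C306 alone (adjusted p = 0.512).

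**Figure D5:**
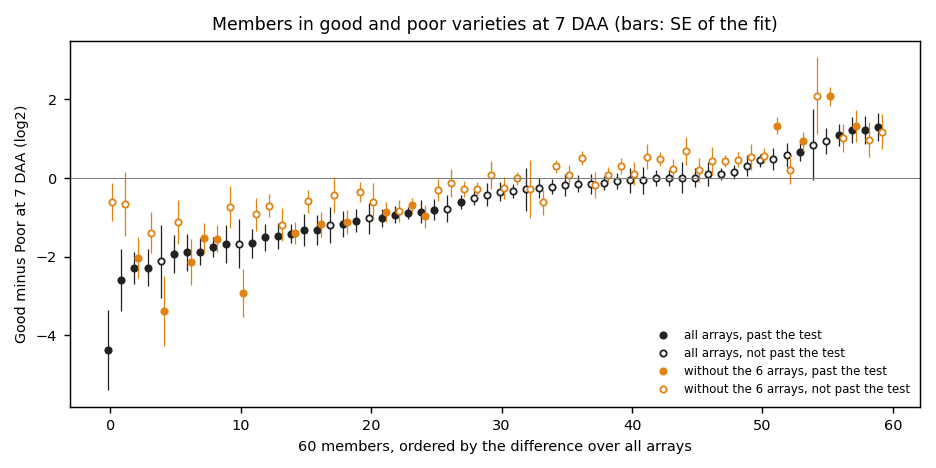
Good minus Poor at 7 DAA in log2 for the 60 members, ordered by the difference over all arrays, with all arrays (black) and without the 6 arrays labelled Lok1 7 DAA and WH291 14 DAA, which leaves C306 alone on the good side (orange); bars are the standard error of the fit and filled points passed the test. With all arrays 28 members passed, 23 of them lower in good varieties, and 16 without the 6 arrays.

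Arrays of one group disagreed at 7 DAA in an order that a part of the members shared. For PsbO, replicate 3 of C306 read 2.69, against 1.39 and 0.61 in the other 2, replicate 3 of Sonalika 1.17, against 2.08 and 2.14, and replicate 1 of WH291 1.10, against 2.79 and 3.70. The same order, with replicate 3 highest in C306, replicate 3 lowest in Sonalika and replicate 1 lowest in WH291, was found for 18 of the 60 members, among them BMY1, Prx1, both probe sets of SAHH and of lgul, LOC543262, LOC543337, LOC543355 and LOC542809. Of these 18, 16 were among the 28 members past the test of good against poor varieties at 7 DAA. This order was looked for after the values of PsbO had been seen, and its share over all probe sets was not counted. Taken singly, C306 replicate 3 was the highest of its 3 arrays for 33 members and Sonalika replicate 3 the lowest for 38. WH291 replicate 1 was the lowest of its 3 for 24 members but the highest for 28. The wider marker list of light reaction genes holds PsbO itself, so its median can be PsbO's own value and is no separate evidence for this order. Over its 5 probe sets the arrays of WH291 at 7 DAA had medians between 0.56 and 3.49 and those of C306 between 0.52 and 2.06. Those of Sonalika lay between 0.83 and 2.02 and those labelled Lok1 between -0.11 and 0.29. A list of 18 probe sets, all but 1 (the starch synthase gene Wx) of storage protein genes, had different levels in good and poor varieties at this stage, with medians of -0.43 in C306 and -0.01 in the arrays labelled Lok1 and of -6.38 in Sonalika and -8.34 in WH291. The part of either list in the differences of the members was not tested.

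The difference between good and poor varieties depended on the stage for 7 members, where 3.80% of all tested probe sets passed the test of the interaction (limma, adjusted p under 0.05). Of the other tested probe sets with a gene symbol, 6.26% passed, against 11.7% of the members. LOC543041, LOC542809, LOC542941, LOC543262, LOC543355, the first lgul probe set and LOC543445 passed, with adjusted p between 0.0034 and 0.0452. In each of the 7 good varieties were lower at 7 DAA, and the difference was closer to 0 or above it at 14 DAA. Its change from 7 to 14 DAA ran from 0.75 for LOC543041 to 4.67 for LOC543445. Without the 6 arrays, which leaves C306 alone on the good side at 7 DAA and Sonalika alone on the poor side at 14 DAA, 4 members passed, of which 1 was among the 7, where 3.12% of all tested probe sets did. The number depended on the fit: 16 members passed with array weights, 12 with variety as a random block, 4 with the replicate block, 3 with the two-way analysis of variance of the methods, and 3 to 18 with 1 array left out, the most without Sonalika 7 DAA replicate 3. The share of all tested probe sets in these other fits is not given.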

How the data were processed

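RNA of wheat caryopses was hybridised to Affymetrix Wheat Genome Arrays. The values are log2 signals as deposited by the authors, normalized with RMA in GeneSpring and centred per probe set on the median over 36 arrays (checked: every median is 0). The arrays' number limits the precision. Members, lists and tests were chosen with earlier results of these data known. P-values of changes within a variety and of pairs of varieties rest on the spread between the 3 biological replications of field-grown plants. For each probe set this spread is 1 estimate pooled over the 12 combinations of variety and stage and moderated by limma across probe sets. It is not that of the groups compared: the median SD over members was 0.63 in Lok1 7 DAA, 0.51 in C306 14 DAA and 0.10 in C306 28 DAA. P-values of good against poor varieties and of the interaction come from the fit of the 6 groups of quality and stage. Their spread also holds differences between the varieties of a quality. The 6 arrays of each such group count there as replicates, although each quality has only 2 varieties.

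A probe set entered the tests if, in any of the 6 groups of quality and stage, none of the 6 arrays read below its own 20th percentile, which 60130 did. Models of the 12 combinations of variety and stage and of the 6 groups were fitted with limma 3.58.1 in R 4.3.3 to all of them, with Benjamini-Hochberg adjustment over 60130 probe sets and a threshold of 0.05. Python 3.11.15 (pandas 2.3.3, matplotlib 3.10.9 and numpy 2.4.6) made the tables and plots. Gene symbols came from the array's annotation, and synonyms from RefSeq for 1272 of 1273 probe sets. No sequences of members were used here.

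Probe sets were named by rule: the 10 largest drops among genes with a name (1 probe set per symbol), members past the tests of quality or interaction (up to 8 per comparison), up to 3 members of each role list, those not lower at 14 DAA in Lok1 or WH291, up to 5 that did not pass in WH291 between 28 and 7 DAA, 3 on either side of the last place, and genes with several member probe sets. On simulated data, 65% of changes of 1 and 94% of changes of 2 (log2) were recovered for WH291 at 28 against 7 DAA, and 91% and 98% for good against poor varieties at 7 DAA. The simulated noise was the spread within each variety and stage, and the varieties of a quality did not differ. The real fit of good against poor varieties carries such differences, so its recovery can be lower.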

Additional observations from a re-analysis of the deposited data

Results flagged for a closer look

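Among 20 groups of 6 arrays checked for an array far from the others, chance flags about 1 in 20, and 2 groups were marked. LOC542941 read 1.02 on WH291 7 DAA replicate 1, below the other 5 arrays of poor varieties at 7 DAA, and LOC543445 read 1.95 on Sonalika 7 DAA replicate 3, below the other 5.

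The difference between good and poor varieties changed from 7 to 14 DAA by 0.75 for LOC543041, 1.73 for LOC542809, 1.42 for LOC542941 and 2.55 for LOC543262, and each of these passed the test of the interaction of quality and stage. It changed by 1.97 for LOC543355, 4.67 for LOC543445 and 1.71 for the first lgul probe set, which passed too. For LOC543445 the arrays labelled Lok1 7 DAA read -5.42, -5.71 and -5.51.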

How the results depend on the processing

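Each count was recomputed without the filter, after cyclic loess, with array weights, with the replicate number as a block, without the 6 arrays labelled Lok1 7 DAA and WH291 14 DAA, with each array left out, for the 30 members with the largest drop and for 1 probe set per gene symbol. Changes in Lok1 from 7 to 14 DAA, in WH291 from 7 to 14 and from 14 to 28 DAA, and Lok1 against WH291 at 7 and 14 DAA could not be fitted without the 6 arrays. Without them good against poor varieties at 7 DAA compares C306 alone with the poor ones. The values that follow are the percent of members past the test, and the cause of their changes was not tested. They are not set beside the share of all tested probe sets in the same fit. C306 against Sonalika at 7, 14 and 28 DAA gave 8.33, 3.33 and 8.33, and with array weights 31.7, 28.3 and 16.7. At 14 DAA it gave 5.08 after cyclic loess and 11.7 without the 6 arrays, and at 28 DAA 13.3 without them. Lok1 against WH291 gave 5.0 at 14 and at 28 DAA, with array weights 16.7 and 15, with 1 probe set per symbol 2.04 at both, and without the 6 arrays 11.7 at 28 DAA. Among the 30 members C306 against Sonalika gave 13.3 at 7 and 0.0 at 14 DAA, Lok1 against WH291 0.0 at 28 DAA, and good against poor varieties 3.33 at 28 DAA. Good against poor varieties gave 46.7 at 7 DAA and 26.7 without the 6 arrays, 0.0 at 14 DAA and 3.33 with array weights, and 1.67 at 28 DAA and 0.0 with variety as a random block. The interaction gave 11.7, and 6.67 without the 6 arrays, 26.7 with array weights, 20 with variety as a random block and 5.0 with the methods' two-way analysis of variance.

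With the replicate block, good against poor varieties at 28 DAA gave 0.0 and the interaction 6.67, and no other percent moved by over 1.5 times. The numbers did not pair the arrays: over 198 pairs of the same number the correlation of deviations ran from -0.546 to 0.531 (median 0.003), and 13 of 36 arrays correlated best with their own number.

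With 1 array left out, the percent ran from 38.3 to 68.3 for Lok1 at 14 against 7 DAA (38.3 without Lok1 7 DAA replicate 1) and from 21.7 to 38.3 at 28 against 14 DAA (21.7 without Lok1 14 DAA replicate 1 or Lok1 28 DAA replicate 2). In WH291 it ran from 76.7 to 83.3 at 14 against 7, 35 to 51.7 at 28 against 14 and 63.3 to 75 at 28 against 7 DAA. C306 against Sonalika ran from 6.67 to 11.7 at 7, 1.67 to 6.67 at 14 and 3.33 to 11.7 at 28 DAA, and Lok1 against WH291 from 50.0 to 68.3, 0.0 to 10 and 1.67 to 13.3 at the same stages. Good against poor varieties ran from 33.3 to 53.3 at 7, stayed at 0.0 at 14 and ran from 0.0 to 3.33 at 28 DAA, and the interaction ran from 5.0 to 30 (30 without Sonalika 7 DAA replicate 3). Among the named genes no called difference changed its sign, and 456 recomputed values were no longer past the test while 6878 were.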
